A study of Mus musculus with 8 samples.

Results

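Lung RNA of the COPD mice model was compared between the TJ-41-containing diet and the control diet, in the 2 libraries labelled elastase+LPS_TJ41 against the 2 labelled elastase+LPS_NT. These are 4 of the 8 libraries of the series. The other 4 came from control mice given PBS on the same diets (PBS_NT and PBS_TJ41, 2 libraries each). All mice were wild type males of the C57BL/6 strain and carried no engineered allele. They ate a diet with 2% TJ-41, or the control diet, from 8 weeks of age. For the COPD mice model, elastase from porcine pancreas (PPE) was given into the trachea at 10 weeks and lipopolysaccharide (LPS) from 12 weeks, and the control mice received PBS in place of both. The day of RNA collection and the number of mice behind each library are not given in the sources used here.

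TJ-41, or hochuekkito, is a mixture of herbal extracts prescribed in Japan for fatigue and loss of strength. PPE cleaves elastin, the protein that lets the alveolar wall recoil, and the airspaces widen. LPS, a component of the bacterial outer membrane, is sensed by Toll-like receptor 4 and draws neutrophils and macrophages into the lung. Repeated injury of this kind also brings B cells and antibody-secreting plasma cells. In each of these cells, the RNA of the heavy and of the light chain carries 1 variable segment and a constant region. The variable segments read in a tissue are therefore those of the clones present.

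Each of the 4 libraries had between 18767295 and 20888042 reads counted on genes, and 20546 genes were tested. Levels are given as CPM (counts scaled to library size with TMM factors), always in the order control diet library 1 and 2, then TJ-41 library 1 and 2. A gene without a count could have had up to 3 counts, a limit that covers counting error only. Lung markers were abundant in all 4 libraries: Sftpc, the surfactant protein of alveolar type II cells, had 11500 to 25900 CPM, Ager of alveolar type I cells 1410 to 2630 CPM and Pecam1 of endothelium 758 to 856 CPM. Heart muscle RNA was present as well, with 99.5 to 254 CPM of Myh6, while the thymus genes Rag1 and Ptcra had at most 0.313 and 0.0513 CPM.

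Library 2 of the control diet lay apart from the others. The SD over genes of the log2 difference between replicates was 0.764 for the control diet in the COPD mice model. It was 0.382 for the TJ-41 diet there, and 0.416 and 0.346 for the control and TJ-41 diets in control mice. Genes with short transcripts were higher and genes with long transcripts lower in that library. Its median log2 difference from the other libraries ran from 0.236 for genes under 1 kb of exons to -0.268 for genes over 8 kb. Every result below is therefore given library by library.

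Of the 20546 genes, 1 was a DEG (FDR under 0.05 and a log2 fold change beyond 1), which is 0.00487% of those tested. At an unadjusted p under 0.05 there were 411 genes that were higher (2%) and 431 that were lower (2.1%) on the TJ-41 diet. After the first, the smallest adjusted p was 0.991. Without control diet library 1 there were 728 DEGs, 430 of which rested on control diet library 2. Without control diet library 2 there were 13, without TJ-41 library 1 there were 0 and without TJ-41 library 2 there were 4, while DESeq2 on all libraries gave 14 and edgeR's exact test 6. The levels of the 4 libraries did not overlap between the diets for 2904 genes that were higher (14.1%) and 3054 that were lower (14.9%).

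The DEG was Igkv3-12 (ENSMUSG00000094117), a variable segment of the kappa light chain of antibodies. It lies on the plus strand of chromosome 6 from 70518250 to 70518849 of GRCm38, in 2 exons (70518250 to 70518298 and 70518540 to 70518849). Its reads numbered 41 and 53 on the control diet and 701 and 441 on the TJ-41 diet. In CPM these were 2.14 and 2.72 against 36.6 and 22.6. Both TJ-41 libraries lay far above both control diet libraries, and the nearest pair differed by 3.04 on the log2 scale. Igkv3-12 rose with a log2 fold change of 3.60 (SE 0.311, Benjamini-Hochberg adjusted p = 0.0188 in the quasi-likelihood test of edgeR). The call was lost without TJ-41 library 1 (log2 fold change 3.21, adjusted p = 0.163), with a replicate block (3.58, adjusted p = 0.0896), with only the 2 groups in the fit, and in limma voom with sample quality weights (adjusted p = 1 in both). Against control diet library 1 alone the log2 difference was 3.73, and against library 2 alone it was 3.39. In control mice the segment had 1.31 and 1.14 CPM on the control diet and 1.84 and 2.00 CPM on the TJ-41 diet. The difference between the diet effects of the COPD mice model and control mice was 2.96 on the log2 scale, but its adjusted p was 0.690 and its unadjusted p 1.0e-04 from the same edgeR fit. That difference was significant for no gene (0% of those tested), with a smallest adjusted p of 0.643 and 672 genes (3.27%) at an unadjusted p under 0.05. DESeq2 gave 17 such genes.

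The Igkv3 segments are near copies of each other, and 58.4% of the 50-base sequences of Igkv3-12 also occur in other genes, so reads may have been assigned to the wrong copy. Of the 359 bases of the Igkv3-12 transcript, 347 are equal in Igkv3-7 and 321 in Igkv3-10. The same 100 bases of the coding sequence (transcript bases 61 to 160) are shown from GRCm38, all on the plus strand. Capitals mark the 21 bases of Igkv3-12 that differ from either relative and, in the relatives, the 20 and 2 bases that differ from Igkv3-12.
Igkv3-12, chr6:70518551-70518650: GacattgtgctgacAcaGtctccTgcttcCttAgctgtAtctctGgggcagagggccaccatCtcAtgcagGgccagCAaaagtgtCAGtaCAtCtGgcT
Igkv3-10, chr6:70572932-70573031: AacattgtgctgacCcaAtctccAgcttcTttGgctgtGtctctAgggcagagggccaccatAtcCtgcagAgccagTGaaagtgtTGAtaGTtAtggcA
Igkv3-7, chr6:70607738-70607837: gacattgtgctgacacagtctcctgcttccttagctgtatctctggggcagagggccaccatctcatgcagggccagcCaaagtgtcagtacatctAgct

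The relatives did not follow Igkv3-12. Igkv3-7 had 9.54 and 2.77 CPM on the control diet and 16.5 and 1.69 CPM on the TJ-41 diet. Igkv3-10 had 14.2 and 2.87 CPM against 23.1 and 2.05 CPM. Igkv3-5 had 1.98 and 1.49 CPM against 31.9 and 1.02 CPM. All 3 were highest in TJ-41 library 1 and lowest in TJ-41 library 2, where Igkv3-12 had 22.6 CPM. As a share of all kappa variable CPM, Igkv3-12 made up 0.151% and 0.29% in the control diet libraries and 1.65% and 3.26% in the TJ-41 libraries. It ranked 65 and 51 of 80 kappa segments on the control diet and 15 and 9 on the TJ-41 diet.

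Variable segments differed in both directions. Of the 87 heavy chain segments tested, 19 were higher (21.8%) and 7 lower (8.05%) without overlap, and of the 80 kappa segments 11 were higher (13.8%) and 8 lower (10%), where 14.1% and 14.9% of all genes were. Heavy segments thus lay above that share on the higher side, and kappa segments near or below it. At an unadjusted p under 0.05, 16 heavy segments were higher and 8 lower, and 14 and 7 kappa segments, where 2% and 2.1% of all genes were. In control mice 38 heavy and 31 kappa segments were higher on the TJ-41 diet without overlap (43.7% and 38.8%, where 19% of all genes were), and 4 and 6 were lower. The median log2 fold change was 0.71 for the heavy segments and 0.19 for the kappa segments. Against control diet library 1 alone the medians were -0.19 and -0.27, and against library 2 alone 1.12 and 0.54, so the direction depended on the control library. Without TJ-41 library 1 the medians fitted were -0.72 for heavy and -1.08 for kappa segments. The SD of the log2 difference between replicates was 1.92 for heavy segments on either diet, and 1.95 (control diet) and 1.89 (TJ-41 diet) for kappa segments. In control mice these SDs were 1.04 and 1.02 on the control diet, and 1.63 and 1.39 on the TJ-41 diet.

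The summed heavy variable segments had 836.9 and 407.3 CPM on the control diet and 1370 and 435.2 CPM on the TJ-41 diet. The summed kappa segments had 1415 and 938.3 CPM against 2218 and 692.5 CPM. On both sums TJ-41 library 1 was the highest, and TJ-41 library 2 lay within the control diet range for the heavy segments and below it for the kappa segments. In bulk lung, more plasma cells and more antibody RNA per cell cannot be told apart. Of 13 genes of plasma cell identity and secretion, such as the transcription factors Xbp1 and Prdm1, 0 were without overlap. Their median log2 fold change was 0.04, and their sum was 790.9 and 812.4 CPM against 847.2 and 773.2 CPM. Of 14 B cell markers 0 were without overlap as well. Their median was -0.155 (-0.57 and 0.51 against libraries 1 and 2), and their sum was 586.5 and 271.2 CPM against 397.2 and 364.5 CPM, with the TJ-41 libraries between those of the control diet.

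The constant regions, which all clones of a class share, did not keep the diets apart either. Of 7 heavy chain constant genes, 0 were without overlap, and of 5 light chain constant and J chain genes 1 was lower without overlap. Ighm, the constant region of IgM, had 1501 and 909.7 CPM against 1350 and 1245 CPM. Igha, that of IgA, had 655.8 and 990.4 CPM against 1546 and 317.5 CPM. Ighg2b had 744.3 and 480.6 CPM against 1450 and 147.8 CPM. The TJ-41 libraries thus held both the highest and the lowest level of IgA and IgG2b. Igkc, the kappa constant region, had 928.6 and 1604 CPM against 1506 and 445.3 CPM, and Jchain, which links IgA and IgM into polymers, 803.4 and 521.5 CPM against 894.6 and 313.7 CPM. Ighg1 was low in control diet library 1, with 22.0 and 73.0 CPM against 115.9 and 59.9 CPM. In control mice, 6 of the 7 heavy constant genes were higher on the TJ-41 diet without overlap, where 19% of all tested genes were.

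Apart from the test, genes were sorted by the libraries that carried their difference. Among the 18021 genes whose mean reached 1 CPM, a gene was said to agree where each TJ-41 library differed from each control diet library by over 2-fold in the same direction. A gene was said to rest on 1 library where that library differed by over 2-fold from each of the other 3, which lay within 2-fold of each other. These groups were chosen on the measured levels, so their differences are descriptions without a test. Agreement was found for 13 genes that were higher (0.0721%) and 21 that were lower (0.117%) on the TJ-41 diet. Control diet library 2 alone was higher for 167 genes (0.927%) and lower for 457 (2.54%), or 98 and 627 when scaled by library size alone. For control diet library 1 the numbers were 59 higher (0.327%) and 93 lower (0.516%), for TJ-41 library 1 they were 17 (0.0943%) and 7 (0.0388%), and for TJ-41 library 2 they were 1 (0.00555%) and 28 (0.155%). The genes that agreed were thus outnumbered by those that rested on control diet library 2.

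**Figure D1:**
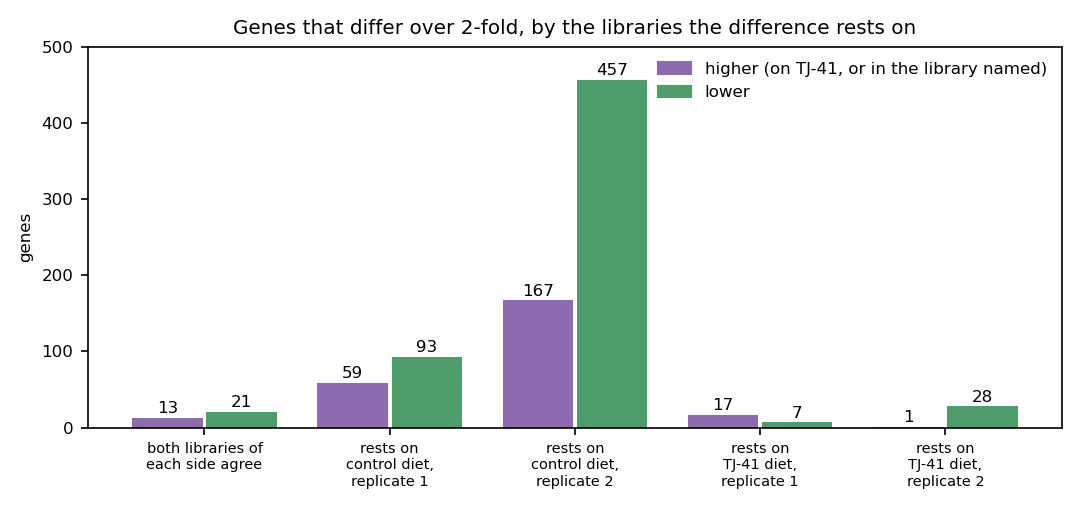
Number of genes (vertical axis) whose level differed by over 2-fold, by the libraries the difference rests on, among 18021 genes whose mean reached 1 CPM. Both libraries of each diet agreed for 13 genes that were higher and 21 that were lower, whereas 167 and 457 genes were higher or lower in replicate 2 of the control diet alone.

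Just inside the limit lay Ighv1-74 (nearest pair 1.01 apart on the log2 scale) and Mab21l3 (-1.002). Just outside lay Ighv1-47 (0.999) and Smpx (-0.987). For the genes that rest on control diet library 2, Rps12-ps13 (1.002) and Zfp969 (-1.001) lay just inside, and Rpl18 (0.999) and Dennd4c (-0.999) just outside.

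Antibody variable segments made up 8 of the 13 genes that agreed on a higher level, and 4 of the others were predicted genes. Among all 18021 genes sorted, 158 were antibody variable segments and 3504 were predicted genes. After Igkv3-12, the widest separations among the named genes were those of Igkv4-55 and Ighv1-18. Ighv1-18 had 3.18 and 3.74 CPM on the control diet and 18.7 and 10.6 CPM on the TJ-41 diet, with a log2 fold change of 2.08 (SE 0.414). Igkv4-55 had 5.79 and 3.64 CPM against 14.3 and 19.7 CPM, with a log2 fold change of 1.85 (SE 0.356). Neither passed the quasi-likelihood test (adjusted p = 0.991 for both), but both were DEGs by DESeq2 (adjusted p = 0.00624 for both), by edgeR's exact test (0.0248 for both) and without control diet library 1. Of the 50-base sequences of Ighv1-18 and Igkv4-55, 32.6% and 53.3% also occur in other genes. Ighv9-2, Ighv1-31, Ighv5-16, Igkv4-69 and Ighv1-74 were at 1.54 CPM or less in both control diet libraries, and their TJ-41 levels ran from 0.678 to 7.41 CPM. For 4 of these 5 segments TJ-41 library 1 was the higher one, with Igkv4-69 (0.678 and 3.27 CPM on the TJ-41 diet) the exception. The ninth named gene, Zfp36l1-ps, a processed pseudogene of an mRNA decay factor, had 1.83 and 1.80 CPM against 4.12 and 4.30 CPM.

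Antibody segments were also 5 of the 21 genes that agreed on a lower level, where they were 158 of all 18021 genes sorted. Ighv8-5 had 4.75 and 11.5 CPM on the control diet and 0.469 and 0.358 CPM on the TJ-41 diet, the widest gap of this group (log2 fold change -4.27, SE 0.743, adjusted p = 0.991 in the quasi-likelihood test). It was a DEG by DESeq2 (adjusted p = 4.43e-05), by edgeR's exact test (0.00125), over all genes with a count (0.0196) and without control diet library 1 (0.00721). Ighv8-12 and Igkv6-32, of the same group, were DEGs by DESeq2 (adjusted p = 0.0278 and 0.0492) and without control diet library 1. Ighv8-12 had 14.9 and 7.74 CPM against 2.82 and 2.76 CPM. Ighv4-1 had 19.97 and 20.9 CPM against 1.57 and 8.03 CPM. Segments of the same family therefore stood on both sides, as Igkv4-63 (10.01 and 6.05 CPM against 2.71 and 0.409 CPM) was lower where Igkv4-55 and Igkv4-69 were higher. These Igkv4 segments share 25.1% to 53.3% of their 50-base sequences with other genes, and Ighv8-5 shares 35.3%. Reads of these segments may therefore have been assigned to the wrong copy. Igkv6-32 had 13.0 and 13.2 CPM on the control diet and 4.23 and 5.27 CPM on the TJ-41 diet. In the PBS-treated control mice it went the other way, with 1.83 and 1.14 CPM on the control diet and 7.79 and 4.87 CPM on the TJ-41 diet. Its difference between the diet effects, -3.55 on the log2 scale, had the smallest unadjusted p of all genes (3.1e-05, adjusted p = 0.643 from the edgeR fit).

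**Figure D2:**
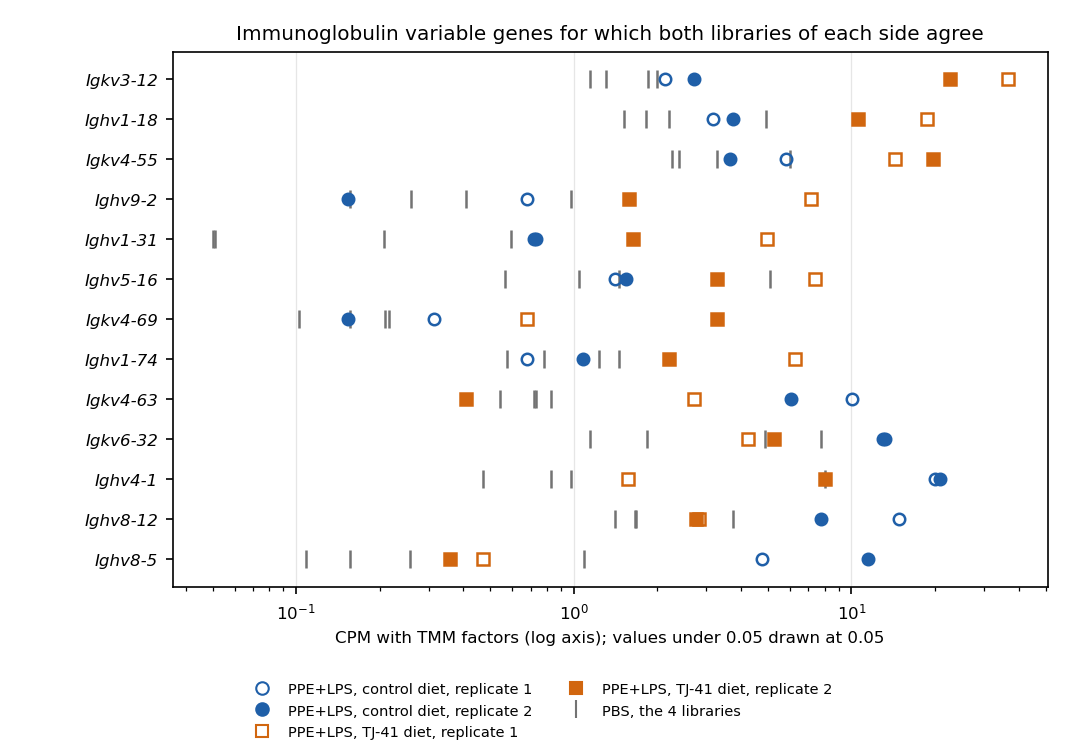
Levels of the 13 antibody variable segments that agreed, in CPM on a log axis, with 1 point for each library of the COPD mice model and a grey tick for each of the 4 PBS libraries. The top 8 rows are higher and the lower 5 rows lower in both TJ-41 libraries, and Igkv3-12 lies at 36.6 and 22.6 CPM against 2.14 and 2.72 CPM.

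Heart muscle genes were lower on the TJ-41 diet in both libraries. In mice, heart muscle cells surround the large pulmonary veins inside the lung as well as forming the atria. Of a list of 15 cardiac muscle genes, 14 were tested. All but Myh7 were lower in both TJ-41 libraries than in either control diet library (13 of 14, against 14.9% of all genes), and 13 had an unadjusted p under 0.05 (against 2.1%). By the quasi-likelihood test 0 were DEGs. Tnnt2 was one by DESeq2 (adjusted p = 0.0152) and by edgeR's exact test (adjusted p = 0.0248). The median log2 fold change was -0.95, with -0.87 against control diet library 1 alone and -1.26 against library 2 alone, beside -0.015 over all tested genes. The summed list had 725.9 and 839.6 CPM on the control diet and 436.3 and 356.1 CPM on the TJ-41 diet. In the PBS-treated control mice it had 561.6 and 673.9 CPM on the control diet and 744.9 and 504.9 CPM on the TJ-41 diet, with a median log2 fold change of -0.10. All 4 PBS libraries lay above the TJ-41 libraries of the COPD mice model, and in control mice the diets overlapped. No member was at 0 in any library of the COPD mice model, and whether the amount of vein or heart tissue in each sample had a part in these differences was not tested.

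Nppa, atrial natriuretic peptide, had 88 and 49 reads on the control diet and 1 and 11 on the TJ-41 diet (4.59 and 2.51 CPM against 0.0522 and 0.562 CPM). Its log2 fold change was -3.50 (SE 0.794, adjusted p = 0.991), and in control mice it had 0.156 to 0.680 CPM. The control diet libraries of the COPD mice model were the only ones above 1 CPM. Exons of genes on the other strand cover 61.5% of Nppa and 64.7% of Pln. They also cover 31.9% of Mb, 31.1% of Kcnj3 and 39.6% of Kcna6, which are given below. The strand setting of the counting is not given in the sources used here.

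Myl7, the light chain of atrial myosin, had 50.8 and 67.8 CPM against 24.4 and 21.4 CPM (log2 fold change -1.37, SE 0.348). Pln, phospholamban, the inhibitor of the calcium pump of the sarcoplasmic reticulum, had 7.46 and 7.33 CPM against 3.50 and 2.30 CPM (-1.35, SE 0.310). With Nppa these are the 3 list members in which both libraries of each side agreed. Csrp3, a protein of the Z-disc, had 9.70 and 15.02 CPM against 8.56 and 4.19 CPM and rested on TJ-41 library 2.

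Among contractile genes, Tnnt2 (cardiac troponin T) had 89.1 and 117.6 CPM against 48.6 and 36.4 CPM (log2 fold change -1.28, SE 0.258). Myh6, the fast cardiac myosin heavy chain, had 221.9 and 254.4 CPM against 130.2 and 99.5 CPM (-1.05, SE 0.320). Myh7, the slow cardiac myosin heavy chain, had 28.7 and 20.3 CPM against 22.8 and 26.8 CPM, with a log2 fold change of 0.02. The diets were thus apart for Myh6 and overlapped for Myh7, which share 20.2% and 15.6% of their 50-base sequences with other genes. The other members (Sln, Actc1, Tnni3, Myl4, Ttn, Mybpc3 and Ryr2) had log2 fold changes of -1.19 to -0.67.

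**Figure D3:**
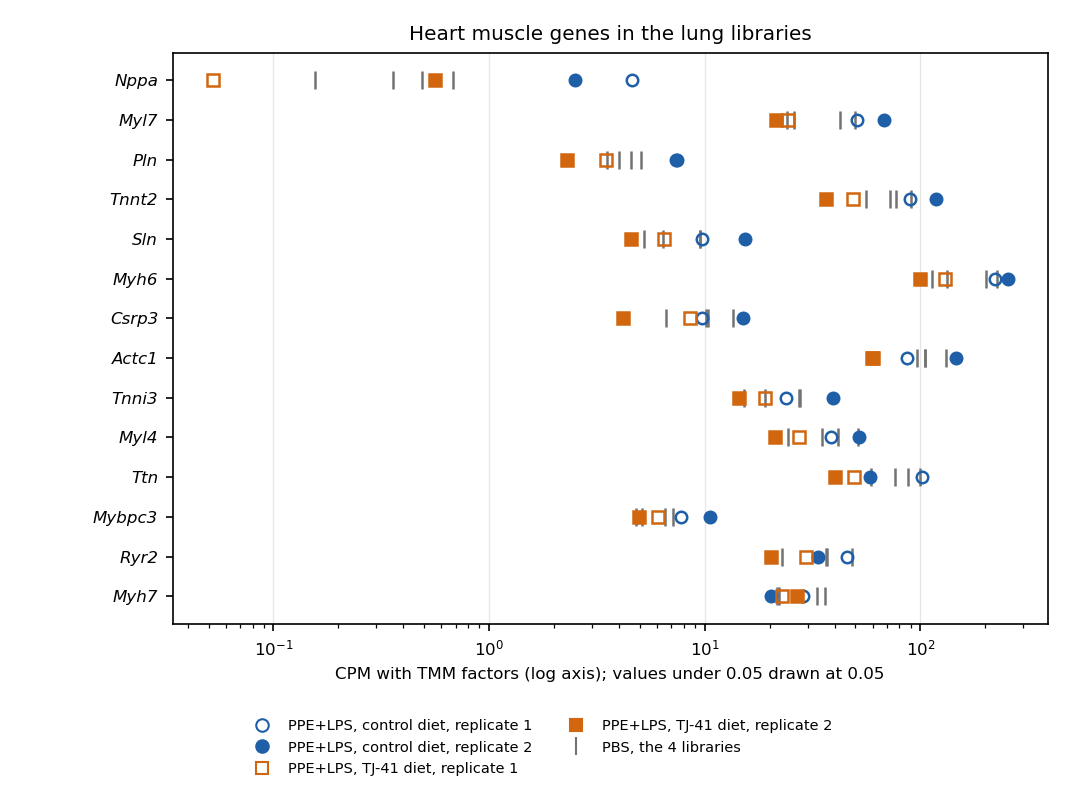
Levels of the 14 cardiac muscle genes in CPM on a log axis, 1 point for each library of the COPD mice model and a grey tick for each PBS library. Both TJ-41 libraries lie left of both control diet libraries in 13 rows, with Myh7 as the exception, and Nppa has the widest gap (4.59 and 2.51 CPM against 0.0522 and 0.562 CPM).

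Genes of muscle outside this list were also among the 21. Kcnj3, a subunit of the potassium channel that slows the atrium, had 7.51 and 5.90 CPM against 1.77 and 1.84 CPM (log2 fold change -1.89, SE 0.369). It was a DEG by DESeq2 (adjusted p = 0.0278) and by edgeR's exact test (0.0248), though not by the quasi-likelihood test. Mb, myoglobin, had 50.6 and 73.2 CPM against 25.0 and 21.2 CPM, and was a DEG by DESeq2 (adjusted p = 0.0316) alone of these 3 tests. Trdn, triadin of the calcium release complex, had 10.6 and 5.64 CPM against 2.71 and 2.61 CPM. Sbk3 (9.65 and 10.7 against 4.43 and 3.27 CPM), Trim55 (1.77 and 1.59 against 0.678 and 0.716 CPM) and Dhrs7c (2.03 and 2.82 against 0.991 and 0.665 CPM) had the same order. Of 8 tested genes of a skeletal muscle list, 3 were lower without overlap, where 14.9% of all genes were. Mb, shared by heart and skeletal muscle, was one of them. Acta1, the actin of skeletal muscle fibres, had 5.74 and 12.3 CPM against 6.94 and 10.2 CPM, so the diets overlapped for it.

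The 300 bases around the start of Nppa and Myl7 (250 before and 50 after it) are shown because both genes agreed. They are from RefSeq on GRCm38.p6, 5′ to 3′ along the gene's strand. Capitals mark TGATAA, a sequence bound by GATA factors, and the CArG box, bound by serum response factor. Both strands were searched.
Nppa, chr4:148000472-148000771, plus strand: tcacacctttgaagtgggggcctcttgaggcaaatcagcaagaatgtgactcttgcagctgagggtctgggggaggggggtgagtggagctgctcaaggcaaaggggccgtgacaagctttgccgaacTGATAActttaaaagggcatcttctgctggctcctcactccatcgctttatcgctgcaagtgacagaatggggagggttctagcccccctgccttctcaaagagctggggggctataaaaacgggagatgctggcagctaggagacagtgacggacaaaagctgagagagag
Myl7, chr11:5898733-5899032, minus strand: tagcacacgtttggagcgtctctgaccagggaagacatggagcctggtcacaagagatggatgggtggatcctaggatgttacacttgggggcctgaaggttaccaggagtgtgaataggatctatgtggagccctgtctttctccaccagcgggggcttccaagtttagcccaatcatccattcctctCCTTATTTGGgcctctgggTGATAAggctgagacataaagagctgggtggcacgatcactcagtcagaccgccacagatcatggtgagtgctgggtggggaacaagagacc
TGATAA occurred in 4 of the 13 cardiac promoters in the table (Myl7, Nppa, Mybpc3 and Pln) and in 9.26% of all 27025 promoters. The CArG box occurred in 2 of the 13 (Myl7 and Actc1) and in 1.57% of all. A match is only a description of the letters in this window.

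The remaining genes that agreed on a lower level had other roles. Serpina3f, a serine protease inhibitor, had 16.2 and 17.1 CPM against 5.32 and 6.54 CPM (log2 fold change -1.49, SE 0.434). In control mice it had 19.9 and 6.54 CPM on the control diet and 4.92 and 4.97 CPM on the TJ-41 diet, a difference in the same direction without overlap. Hamp, hepcidin, the hormone that limits iron export, had 5.68 and 7.23 CPM against 2.56 and 1.59 CPM. Slc30a2, a zinc exporter, had 1.67 and 1.64 CPM against 0.730 and 0.716 CPM. Kcna6, a voltage-gated potassium channel, had 1.04 and 3.38 CPM against 0.209 and 0.409 CPM, and the microRNA gene Mir703 had 2.09 and 4.87 CPM against 0.887 and 0.869 CPM. Set against the 4 PBS libraries, both control diet libraries of the COPD mice model lay above all of them for 16 of these 21 genes. The TJ-41 libraries lay within the PBS range for 8 and below it for 6. Of the 13 genes that agreed on a higher level, both TJ-41 libraries lay above all PBS libraries for 10. Both groups were chosen with the diets apart, which favours such positions. The same counts over all genes were not made, so nothing is concluded from these.

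The genes that rested on control diet library 2 were of another kind. Of the 167 that were higher there, 64.7% were protein coding and 26.9% processed pseudogenes, with a median exon length of 1144 bases. Of the 457 that were lower, 44.6% were protein coding and 22.3% processed pseudogenes, with a median of 2877 bases. Among all 18021 genes, 78.6% were protein coding and 12.5% processed pseudogenes, with a median of 3652 bases. That library was above all 7 others of the series for 158 of the 167 genes and below all 7 for 446 of the 457. The genes were chosen for its distance from the other libraries of the COPD mice model, which favours such counts. The same count over all genes was not made. For 11 of the 167 and 58 of the 457, the gap to the next library of the COPD mice model was over 2 on the log2 scale.

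Retnla, a secreted resistin-like protein of alternatively activated macrophages and airway epithelium, had 18.7 and 667.7 CPM on the control diet and 27.8 and 36.1 CPM on the TJ-41 diet. Control mice had 32.1 to 36.9 CPM. The fitted log2 fold change of -3.43 (SE 1.13, adjusted p = 0.991) was -4.40 against library 2 and 0.76 against library 1, so its direction came from 1 library. Hspa1a and Hspa1b, the inducible heat shock protein 70 genes, had 2.29 and 31.1 CPM against 3.65 and 4.24 CPM, and 3.91 and 49.9 CPM against 4.96 and 7.36 CPM. In control mice, TJ-41 library 2 was the highest for both, with 36.9 and 53.3 CPM. The promoters of this pair are equal at 296 of 300 bases, and 60.3% and 62.3% of their 50-base sequences occur in other genes. The promoter of Hspa1a is printed as those of Nppa and Myl7, with the heat shock element GAANNTTC in capitals.
Hspa1a, chr17:34972107-34972406, minus strand: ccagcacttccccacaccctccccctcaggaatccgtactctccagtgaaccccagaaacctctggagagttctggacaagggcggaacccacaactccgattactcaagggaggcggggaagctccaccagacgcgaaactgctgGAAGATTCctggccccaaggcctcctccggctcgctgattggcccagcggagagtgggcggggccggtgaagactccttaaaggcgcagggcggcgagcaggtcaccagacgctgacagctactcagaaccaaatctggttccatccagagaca
GAANNTTC occurred in 7 of the 11 heat shock promoters in the table and in 7.95% of all promoters.

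Nr4a3, an immediate early nuclear receptor, had 5.21 and 31.7 CPM against 5.69 and 5.27 CPM, and 3 of the 4 PBS libraries had 34.1 to 37.8 CPM while the other had 3.38 CPM. Orm1, an acute phase protein, had 1.46 and 8.51 CPM against 1.88 and 1.28 CPM. Rpl36al (1.36 and 7.13 against 1.46 and 1.64 CPM), Rps12-ps10 (0.886 and 3.74 against 0.783 and 0.869 CPM) and Mir692-2 (1.62 and 8.26 against 1.25 and 1.18 CPM) were alike in this, and share 22.1%, 48.6% and 100% of their 50-base sequences with other genes.

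On the other side, Kcna3, a potassium channel of lymphocytes and macrophages, had 157 and 4 reads on the control diet and 164 and 142 on the TJ-41 diet (8.19 and 0.205 CPM against 8.56 and 7.26 CPM). Tlr8, an endosomal RNA sensor, had 15.6 and 1.23 CPM against 11.9 and 11.8 CPM. Slc9a7, a sodium-proton exchanger, had 7.25 and 0.769 CPM against 5.74 and 6.44 CPM. In each of these the other control diet library lay beside the TJ-41 libraries. Mgam, Xkr4, Zfa-ps, Ighv10-1 and Glcci1 had 0.0513 to 2.31 CPM in library 2, and 0.887 to 18.6 CPM in the other 3 libraries of the COPD mice model. Against library 2 alone the TJ-41 libraries were higher for all 8 of these named genes, by 2.63 to 5.10 on the log2 scale, and against library 1 alone they differed by -0.46 to -0.04.

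**Figure D4:**
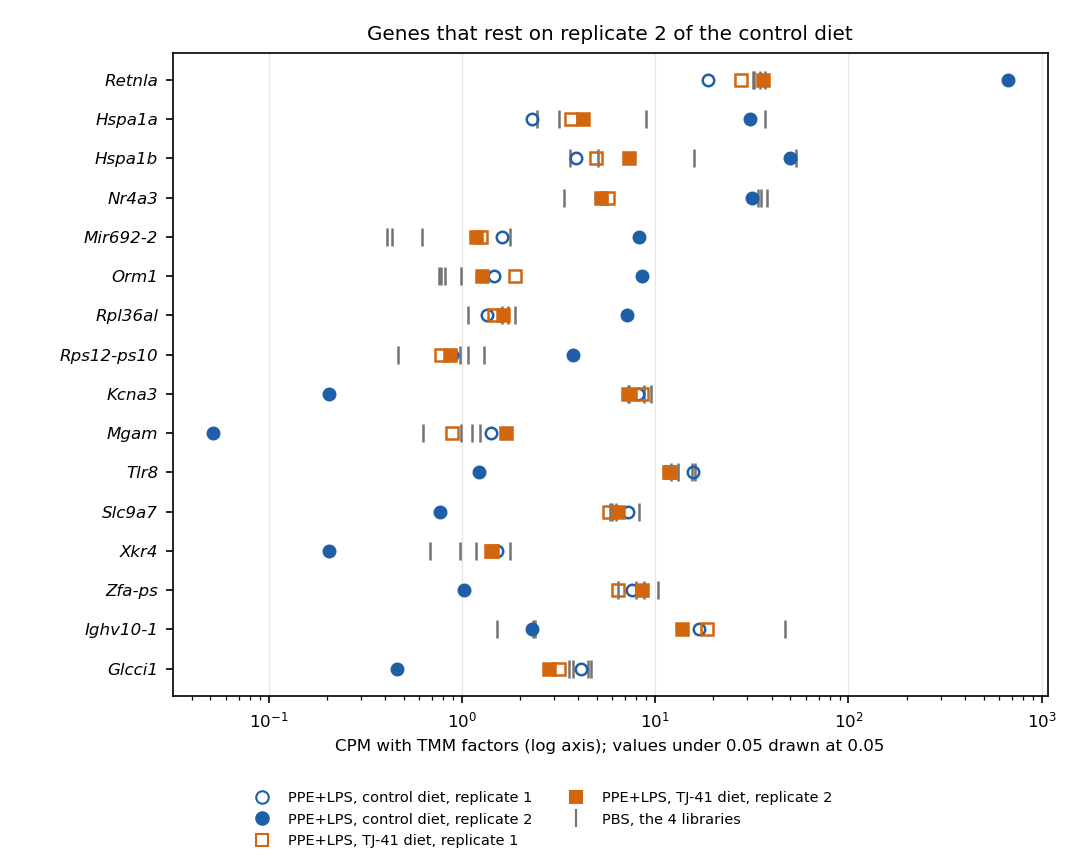
Levels of the 16 named genes that rested on control diet library 2 (filled circle), in CPM on a log axis, with the other libraries of the COPD mice model as points and the 4 PBS libraries as grey ticks. Retnla stands at 667.7 CPM in that library against 18.7 to 36.1 CPM in the other 3, and Kcna3 at 0.205 CPM against 7.26 to 8.56 CPM.

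The diet contrast of control mice, which these groups did not use, itself ran with transcript length. Its median log2 difference went from -0.13 for genes under 1 kb of exons to 0.138 for genes over 8 kb, and its part in the counts that follow was not tested. In control mice 133 of the 167 genes high in control diet library 2 were lower on the TJ-41 diet, where 51% of all genes were, and 368 of the 457 genes low in it were higher (80.5%, where 49% of all genes were). PBS control diet library 1 leaned the way of that library, with class medians of 0.298 and -0.304 on the log2 scale against the other libraries of the COPD mice model. With PBS control diet library 2 as the only control, the counts were 106 of 167 (63.5%, against 49.9% of all genes) and 299 of 457 (65.4%, against 50.1%). The genes that rested on control diet library 1 went the other way. Of the 59 high in it, 23 were lower and 36 higher (61%) in the PBS_TJ41 libraries than in the PBS_NT libraries. Of the 93 low in it, 26 were higher (28%) and 67 lower in that comparison, where 49% of all genes were higher. With PBS control diet library 2 alone, 10 of the 59 and 28 of the 93 had the direction of the COPD mice model. Of the genes that agreed, 8 of the 13 higher and 9 of the 21 lower ones had the same direction in control mice.

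Gene lists of inflammation, stress and cell types were read against each control diet library in turn. Beside each count stands the share of all tested genes without overlap, 14.1% higher and 14.9% lower, and no list member other than Igkv3-12 was a DEG by the quasi-likelihood test.

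Chemokines, secreted attractants of leukocytes, differed from library 2 more than from library 1. Of 13 CC chemokine genes, 5 were lower and 0 higher without overlap, and the median log2 fold change was -1.04, with -0.22 against library 1 and -1.40 against library 2. Ccl17 and Ccl22, ligands of CCR4 on T cells, and Ccl20, the ligand of CCR6, rested on library 2. Ccl22 had 12.6 and 43.2 CPM against 16.0 and 11.3 CPM, and Ccl17 had 5.68 and 27.1 CPM against 10.2 and 5.73 CPM, so library 1 overlapped the TJ-41 diet for both. The monocyte attractant Ccl2, by contrast, had 1.30 and 2.82 CPM against 0.783 and 0.358 CPM, and the eosinophil attractant Ccl11 had 8.45 and 14.2 CPM against 5.11 and 5.68 CPM.

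Of 16 interferon-stimulated genes, 9 were lower and 0 higher without overlap, but by little. The median log2 fold change was -0.37 (-0.18 and -0.40 against libraries 1 and 2), and 1 gene had an unadjusted p under 0.05. That gene, Ifi44, had 11.4 and 13.7 CPM against 6.05 and 7.31 CPM. Isg15 rested on library 2 (3.70 and 10.3 CPM against 3.39 and 4.30 CPM), and Gbp2 was highest in library 1 (295.5 and 150.1 CPM against 145.6 and 134.3 CPM).

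Immediate early genes, which respond to stimulation within minutes, were lower on the TJ-41 diet without overlap in 8 of 18 cases. The same number had an unadjusted p under 0.05, and the median log2 fold change was -0.72 (-0.26 and -1.14 against libraries 1 and 2). Fosb had 10.3 and 27.1 CPM against 3.29 and 5.37 CPM (log2 fold change -2.11, SE 0.507) and was a DEG by DESeq2 (adjusted p = 0.0152). Egr1 had 101.1 and 122.8 CPM against 29.95 and 84.8 CPM, and Fos had 49.6 and 74.9 CPM against 18.1 and 43.0 CPM. Both rested on TJ-41 library 1, the lowest of the 4. Of 14 heat shock genes, which encode chaperones, 6 were lower without overlap, and 5 rested on library 2. Their median of -0.60 was -0.08 against library 1 and -0.99 against library 2.

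Of 9 red cell genes, 6 were lower without overlap, with a median log2 fold change of -1.12 (-0.77 and -1.17 against libraries 1 and 2). Their sum was 2006 and 3831 CPM on the control diet and 1057 and 1269 CPM on the TJ-41 diet, and 948.6 to 2835 CPM in control mice. Hba-a1, an alpha globin, had 598.9 and 1364 CPM against 310.9 and 396.2 CPM. Hbb-bs, a beta globin, had 457.5 and 685.2 CPM against 235.5 and 252.6 CPM. Of the 50-base sequences of Hba-a1 and Hbb-bs, 72.3% and 53.2% also occur in other genes.

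Of 7 tested targets of the aryl hydrocarbon receptor, a sensor of plant and smoke compounds, 5 were lower without overlap. Their median log2 fold change was -0.51 (-0.31 and -0.69 against libraries 1 and 2), and 1 rested on library 2. Their sum was 332.8 and 355.9 CPM on the control diet and 261.3 and 250.4 CPM on the TJ-41 diet. Cyp1a1, the classic target of this receptor, varied widely between replicates, with 5.01 and 146.6 CPM against 1.98 and 3.22 CPM. In control mice it had 171.0 and 5.45 CPM on the control diet and 1.43 and 1.78 CPM on the TJ-41 diet. All 4 TJ-41 libraries of the series were below all 4 control diet libraries, but in each control diet pair 1 library was far above its replicate. The fitted log2 fold change was -4.86 (SE 1.69), with -0.98 against library 1 alone and -5.84 against library 2 alone.

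Airway epithelium differed mostly from library 2. Of 13 epithelial acute phase genes 1 was lower without overlap, and the median was -0.51, with 0.33 against library 1 and -0.97 against library 2. Lcn2, which binds bacterial siderophores, had 193.5 and 889.8 CPM against 318.6 and 255.3 CPM, and Saa3, serum amyloid A, had 4.17 and 57.8 CPM against 7.72 and 3.58 CPM. Of 14 club and secretory cell genes, 1 was higher and 3 lower without overlap, and 4 rested on library 2, with a median of -0.40 that turned to 0.12 against library 1. Scgb3a2, a secretoglobin of club cells, had 451.5 and 571.1 CPM against 330.7 and 319.0 CPM, so both control diet libraries were above both TJ-41 libraries.

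Of 13 ciliated cell genes, 6 were lower without overlap in the COPD mice model, with a median of -0.35 (-0.31 and -0.44 against libraries 1 and 2). In control mice 7 of the 13 were higher without overlap and 0 lower, where 19% of all genes were higher and 19.1% lower, with a median of 0.22. Sntn, sentan of the ciliary tip, had 22.4 and 20.3 CPM against 13.5 and 15.4 CPM in the COPD mice model, and in control mice it had 13.9 and 12.6 CPM on the control diet and up to 21.6 CPM on the other, without overlap. Its difference between the diet effects had an unadjusted p of 0.00174 and an adjusted p of 0.999 in the edgeR fit. Foxj1, the master regulator of cilia, had 46.9 and 87.2 CPM against 52.4 and 54.0 CPM and overlapped.

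Alveolar type II cells make surfactant. Of 15 of their genes, 7 were higher without overlap and 0 lower, with a median of 0.10 (0.29 and 0.08 against libraries 1 and 2). In control mice 6 were lower and 1 higher. Fasn, fatty acid synthase, had 348.0 and 355.1 CPM against 603.9 and 549.2 CPM (log2 fold change 0.71, SE 0.216, adjusted p = 0.991). Abca3, the lipid transporter of lamellar bodies, had 349.4 and 199.5 CPM against 468.7 and 417.8 CPM. Sftpc, in contrast, had 11470 and 25920 CPM against 14760 and 15500 CPM. Of 14 adipocyte genes 7 were higher without overlap, with a median of 0.35 (0.58 and 0.11). Plin1, the perilipin of fat cells, had 2.61 and 3.59 CPM against 5.17 and 6.34 CPM, while Fabp4 had 20.8 and 48.9 CPM against 28.6 and 31.5 CPM.

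For leukocytes the size of the median depended on the control library. Of 15 tested neutrophil markers, 1 was higher without overlap, with a median of 0.37 (0.21 and 0.98 against libraries 1 and 2). S100a8, a calprotectin subunit, had 50.2 and 12.7 CPM against 31.1 and 83.9 CPM, and S100a9 had 82.5 and 26.2 CPM against 48.3 and 144.2 CPM, so each diet had a high and a low library. Of 15 alveolar macrophage genes 2 were higher without overlap, with a median of 0.24 (0.01 and 0.69). Chil3, a chitinase-like protein, had 624.9 and 1387 CPM against 961.7 and 1152 CPM. Siglecf, a lectin of these cells, had 8.66 and 2.87 CPM against 7.72 and 9.25 CPM and rested on library 2.

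Of 12 NK and cytotoxic genes 2 were lower without overlap, and 4 rested on control diet library 1, with a median of -0.46 (-1.11 and 0.40). Gzma, granzyme A, had 47.9 and 13.4 CPM against 15.6 and 21.01 CPM. Of 10 mesothelial genes 3 were higher without overlap, with a median of 0.33 (0.96 and -0.13). Bnc1, a transcription factor of mesothelium, had 3.29 and 3.59 CPM against 6.68 and 10.7 CPM, whereas Msln, mesothelin, had 25.7 and 92.2 CPM against 64.5 and 97.5 CPM and was low in library 1. Of 15 elastic fibre genes 2 were higher without overlap, with a median of 0.08 (0.75 and -0.47). Eln, elastin, had 64.8 and 211.5 CPM against 141.0 and 122.8 CPM, and the TJ-41 libraries lay between the control diet libraries. Of 14 glucocorticoid-responsive genes, 1 was higher without overlap and 3 rested on library 2, with a median of -0.35 (0.13 and -0.76). Tsc22d3, the glucocorticoid-induced leucine zipper, had 176.1 and 403.4 CPM against 133.3 and 181.1 CPM.

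**Figure D5:**
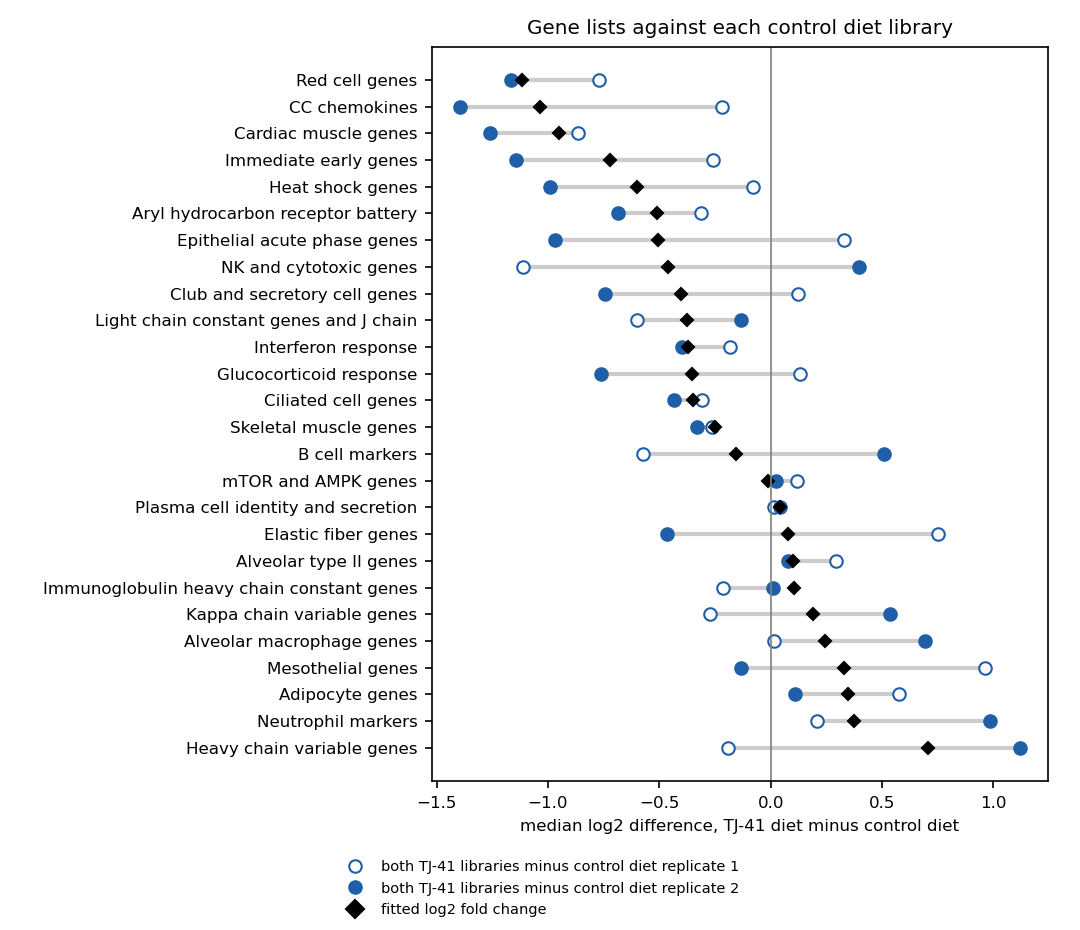
Median log2 difference over the tested members of each gene list, TJ-41 diet minus control diet, with the fitted value (diamond), and both TJ-41 libraries against replicate 1 (open circle) or replicate 2 (filled circle) of the control diet. Cardiac muscle genes lie at -0.87 and -1.26 and red cell genes at -0.77 and -1.17, while CC chemokines lie at -0.22 and -1.40 and elastic fibre genes on either side of 0.

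Genes of the proteins and mRNAs that were measured in the study by other means did not pass the test. Those mRNAs were measured in human cell lines. The proteins were measured in the same lines and in lungs of wild type mice on either diet, for which PPE and LPS are not mentioned. Il6 had 0.991 and 1.44 CPM on the control diet and 0.522 and 0.614 CPM on the TJ-41 diet, from 10 to 28 reads in a library. Its log2 fold change was -1.09 (SE 0.495, unadjusted p = 0.0552 and adjusted p = 0.991 from the edgeR fit), and the diets did not overlap. Tnf had 2.19 and 3.69 CPM against 2.04 and 1.69 CPM (-0.66, SE 0.367). Nfe2l2, which encodes the antioxidant regulator Nrf2, had 286.4 and 287.8 CPM against 229.8 and 262.3 CPM (-0.22, SE 0.158). Map1lc3b, which encodes the autophagy protein LC3B, had 108.5 and 197.8 CPM against 132.4 and 140.2 CPM, with the TJ-41 libraries between those of the control diet.

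The kinase mTOR promotes growth and restrains autophagy, and AMPK counters it when energy is short. Of 21 genes of both pathways 6 were higher and 2 lower without overlap, with a median of -0.01. Mtor had 59.7 and 53.9 CPM against 68.9 and 72.2 CPM (log2 fold change 0.31, SE 0.158, unadjusted p = 0.0775 from the edgeR fit). Rps6kb1, the S6 kinase downstream of mTOR, had 79.8 and 49.2 CPM against 64.1 and 65.5 CPM. Prkaa1 and Prkaa2, which encode the alternative AMPK catalytic subunits, had 84.6 and 66.2 CPM against 69.2 and 71.7 CPM, and 58.1 and 41.0 CPM against 46.6 and 46.8 CPM. For these 3 kinase genes the TJ-41 libraries lay between the control diet libraries, and mRNA levels do not measure kinase activity.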

How the data were processed

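RNA was prepared from lung with the RNeasy Mini Kit and sequenced in 8 libraries, 2 in each of 4 groups. Samples were grouped by the title labels, and TJ41 and TJ4, both found in the labels, were read as 1 diet. The authors deposited raw read counts per Ensembl gene, without normalization, on mm10 (GRCm38). The submitters' processing notes name HISAT2 and edgeR, and the methods name CLC Genomics Workbench. The counting program, its annotation, its strand setting and its treatment of reads with several matches are not given in the sources used here. Of 52636 identifiers, 52489 were found in GENCODE M21, which gave names and coordinates.

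The software was edgeR 4.0.16 under R 4.3.3. Low genes were removed with filterByExpr (minimum count 10, minimum total 15), and libraries were scaled by TMM. The quasi-likelihood test was applied to the means of all 4 groups, with 4 residual degrees of freedom and a common biological coefficient of variation of 0.208. Each SE is the log2 fold change over the square root of its F statistic. P-values were adjusted by Benjamini-Hochberg over all genes tested. Library to library differences used log2 CPM with a prior count of 0.5. With 2 libraries against 2, the smallest two-sided p of an exact permutation test is 0.333. The labels do not say that libraries came from separate animals, so p-values measure the spread between these libraries, which may be technical. Replicates differed by 12.0 to 88.6 times the variance of counting, so none was a copy. The steps were tested on simulated data.

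Alternatives were DESeq2 1.42.0, other scaling factors and filters, edgeR's exact test, a fit of only the 2 groups, limma 3.58.1 voom with sample weights, a replicate block and leaving out each library. A loess correction for exon length and GC content (span 0.5) and PBS control diet library 2 as the only PBS control were added after seeing the data.

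The comparison, the groups of genes and the gene lists were chosen with earlier results of these data known, so no test of the groups or lists as sets was made. Genes were named by this rule: every DEG; of the genes that agreed, the 12 in each direction with the widest gap; of those that rested on control diet library 2, the 8 in each direction with the widest gap, predicted genes left out in both; genes the study measured by other means; and up to 4 members of a list, those in a group first and then by level. Every other gene given with a value was chosen after its values were seen.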

Additional observations from a re-analysis of the deposited data

How the results depend on the processing

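Igkv3-12 kept its direction in all settings run, with log2 fold changes of 3.21 to 3.91, and lost its call in the 4 settings given with its values. The number of DEGs was 1 by the quasi-likelihood test on all groups, 14 by DESeq2, 6 by edgeR's exact test, 2 over all genes with a count, and 0 with only the 2 groups in the fit, with sample quality weights in limma voom and with a replicate block. Without 1 of the 4 libraries it ran from 0 to 728. The number of genes for which the diet effects differed was 0 by the quasi-likelihood test, 17 by DESeq2 and 6 over all genes with a count, and it ran from 0 to 14 without 1 library. The replicate numbers were not taken to pair the libraries: the correlation of the replicate differences between the diets of the COPD mice model was 0.0255, and over all pairs of groups it ran from -0.253 to 0.154.

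The 34 genes that agreed became 104 without a minimum level, 13 at a mean of 5 CPM or more and 176 at 1.5-fold, and the 624 that rested on control diet library 2 became 320 and 2450 under the last 2 of these settings. Leaving out a library was not possible for these groups, which need all 4. With sample quality weights the sign turned for Acta1 (0.002), Eln (0.168), Igha (-0.204) and Ighg2b (-0.372). It also turned for Eln with library size alone (0.014) and with the replicate block (0.072), and for Myh7 with the correction for length and GC content (-0.124). Without 1 library, 14 of the 26 list medians took both signs. The log2 fold changes of 43 genes given in the text turned as well, over these ranges: Acta1 -0.52 to 0.58, Ccl17 -1.76 to 0.49, Ccl22 -1.67 to 0.11, Chil3 -0.39 to 0.76, Eln -0.68 to 1.02, Fabp4 -0.70 to 0.53, Foxj1 -0.71 to 0.18, Glcci1 -0.46 to 2.68, Gzma -1.39 to 0.45, Hspa1a -2.98 to 0.78, Hspa1b -3.02 to 0.66, Igha -1.37 to 0.91, Ighg2b -2.05 to 1.25, Ighm -0.21 to 0.51, Ighv10-1 -0.068 to 2.80, Igkc -1.50 to 0.25, Igkv3-10 -2.06 to 2.13, Igkv3-5 -0.75 to 4.20, Igkv3-7 -1.86 to 1.71, Isg15 -1.41 to 0.053, Jchain -1.07 to 0.44, Kcna3 -0.051 to 5.23, Lcn2 -1.63 to 0.57, Map1lc3b -0.54 to 0.33, Mgam -0.13 to 4.49, Msln -0.18 to 1.66, Myh7 -0.21 to 0.29, Nr4a3 -2.53 to 0.069, Orm1 -2.43 to 0.11, Prkaa1 -0.27 to 0.093, Prkaa2 -0.32 to 0.19, Retnla -4.38 to 0.78, Rpl36al -2.20 to 0.19, Rps6kb1 -0.30 to 0.40, S100a8 -0.008 to 2.18, S100a9 -0.16 to 1.88, Saa3 -3.35 to 0.43, Sftpc -0.78 to 0.40, Siglecf -0.029 to 1.56, Slc9a7 -0.25 to 2.98, Tlr8 -0.40 to 3.26, Xkr4 -0.091 to 2.75, Zfa-ps -0.026 to 2.86. The cause was not tested. Depth limits the genes with few reads, such as Il6 and Nppa.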
